A study of Bos taurus with 8 samples.

Results

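The ABC transporters are the genes whose symbol in the array's annotation is ABC, a subfamily letter from A to G and a number. Membership rests on that name alone, but the genes were chosen with earlier results of these data known. They came to 36 of the 15229 named genes, with 47 probes: 11 genes of subfamily A, 7 of B, 7 of C, 3 of D, 1 of E, 2 of F and 5 of G. A later RefSeq annotation of cattle (assembly ARS-UCD2.0) lists 46 genes under such names, and the 10 others were not analysed here. The samples were granulosa cells, which line the ovarian follicle and make oestradiol, scraped from dominant follicles over 9 mm of Holstein dairy cattle at slaughter. The follicles were sorted into phases by the DNA content of their cells. Atretic follicles are regressing ones, and growing follicles are still expanding. Neither phase received a treatment. The sources used here do not give the age, cycle stage or number of the animals, and p-values therefore cover only how these follicles differ among themselves. Each of 4 atretic follicles shared an array with 1 of 4 growing follicles, and the dyes were exchanged on a second array, which gave 4 pairs and 8 arrays.

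ATP-binding cassette proteins use the energy of ATP to move molecules across membranes. Subfamily A mainly handles lipids, and B holds the drug efflux pump ABCB1, peptide carriers and mitochondrial carriers. C exports conjugates of glutathione and other organic anions, D carries fatty acids and vitamin B12 in peroxisomes and lysosomes, and G moves sterols and the substrates of ABCG2. Subfamilies E and F span no membrane and act on ribosomes. In the follicle, cholesterol is the starting material of steroid hormones, so sterol carriers are commonly studied there.

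A level is the normalised log2 intensity of a probe in the dye channel of a follicle, averaged over both of its arrays. A ratio is the log2 ratio of the atretic over the growing follicle of a pair. Means of ratios carry the standard error (SE) of limma's model over 4 pairs. Each gene is represented by its brightest probe, and levels of different probes cannot be ranked against each other. Probe sequences were not used here, so signal from close relatives in the family could not be checked. Median spot intensity was 4.10 to 5.45 times the local background in Cy5 and 8.97 to 13.6 times in Cy3, and in each channel 48.4% to 72.1% of probes exceeded the 95th percentile of the negative control spots. Ratios of dye-swapped arrays correlated at 0.62 to 0.78 across probes. Pair 1 stood apart, correlating at -0.22, -0.37 and -0.06 with pairs 2, 3 and 4 across probes, which correlated at 0.23 to 0.50 with each other. Its atretic follicle had a summed level of 15.85 for 8 theca markers, against 12.60 to 14.36 in the other atretic and 12.68 to 13.78 in the growing follicles. A summed level is the log2 of the added linear intensities of a list, so the brightest probes dominate it. Of these theca markers 5 were above the controls in all 8 follicles. The sum was carried by HSD3B1 (14.88), STAR (13.98) and LHCGR (13.05), which also belong to the luteal list. CYP17A1, a theca marker outside that list, was also highest in the atretic follicle of pair 1, at 9.49. Its level reached at most 7.42 in the other atretic and 9.12 in the growing follicles. In the atretic follicle of pair 1, INSL3 (8.61) and NR2F2 (8.20) lay within the range of the growing follicles. PTCH1 (11.36) was the lowest of the atretic ones there. The 7 luteal markers, 5 of them above the controls in all 8 follicles, summed to 16.60 in that follicle, against 12.41 to 14.63 and 12.80 to 15.59, and this is not separate from the theca sum. The granulosa markers, with 7 of 8 above the controls in every follicle, also had their highest sum there, at 17.70. It hardly stood out, since the sums were 16.32 to 17.59 in the other atretic and 15.59 to 17.66 in the growing follicles. In such samples, fewer cells of a type and less RNA per cell cannot be told apart.

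A gene was counted in a follicle when its level was above the 95th percentile of the 153 negative control spots on both arrays of that follicle. By this count 12 of the 36 ABC genes were above the controls in all 8 follicles, against 44.7% of all named genes. They were ABCA3, ABCA9, ABCB1, ABCB6, ABCB8, ABCC5, ABCD3, ABCD4, ABCE1, ABCF2, ABCF3 and ABCG2. A further 8 genes were above the controls in 4 to 7 follicles, 8 in 1 to 3 follicles and 8 in none. The 8 in none were ABCA2, ABCA10, ABCB5, ABCB9, ABCB11, ABCC11, ABCG4 and ABCG5. ABCB11, the bile salt export pump, and ABCG5, which with ABCG8 exports sterols from liver and gut cells, are known mainly from liver. ABCG8 itself was above the controls in 2 atretic follicles and in 0 growing ones.

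**Figure D1:**
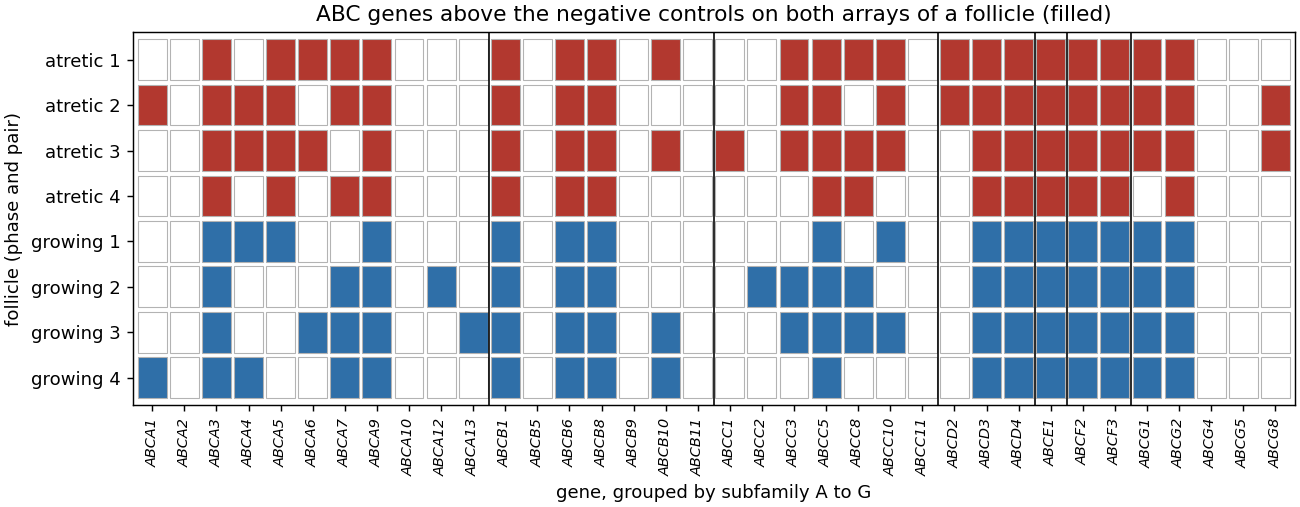
Each filled square marks an ABC gene (horizontal axis, by subfamily) that was above the negative controls on both arrays of a follicle (vertical axis; red atretic, blue growing). The 12 genes filled in every row come from all 7 subfamilies, and 8 genes are filled in no row.

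Every one of the 7 subfamilies had at least 1 gene above the controls in all follicles. They were 2 of 11 genes in A, 3 of 7 in B, 1 of 7 in C, 2 of 3 in D, 1 of 1 in E, 2 of 2 in F and 1 of 5 in G. The atretic follicles of pairs 1 to 4 had 21, 21, 22 and 15 ABC genes above the controls, and the growing follicles had 16, 18, 20 and 17. The ranges overlapped, with 19.8 ± 3.2 genes (SD, n = 4) in atretic and 17.8 ± 1.71 (SD, n = 4) in growing follicles (exact two-sided permutation p = 0.371). Over all named genes the share above the controls was likewise lowest in the atretic follicle of pair 4, at 55.8% against 60.1% to 68.3% in the other follicles.

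In the comparison of atretic with growing follicles, 31 of the 36 ABC genes reached the mean log2 intensity of 7 that the study required. The 5 left out were ABCB5, ABCB9, ABCB11, ABCG4 and ABCG5. The study's threshold asked for a change of 1.5-fold or more and an unadjusted p under 0.05. Past it, 1 ABC gene was higher in atretic follicles (ABCB1), where 2.66% of all 13625 genes tested were, and 1 was lower (ABCD4), where 2.44% were. For 31 genes these counts are close to the share over all genes. After Benjamini-Hochberg adjustment over all probes in limma, 0 ABC genes passed 0.05, as did 0% of all genes tested. An unadjusted p under 0.05 was found for 4 of the 31 ABC genes (ABCB1, ABCA5, ABCD4 and ABCC1), and for 8.39% of all genes tested. The median ratio was 0.01 over the ABC genes and 0.01 over all genes, with 17 ABC genes above 0 and 14 below. The median size of the ratio, sign ignored, was also alike, at 0.16 in both.

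**Figure D2:**
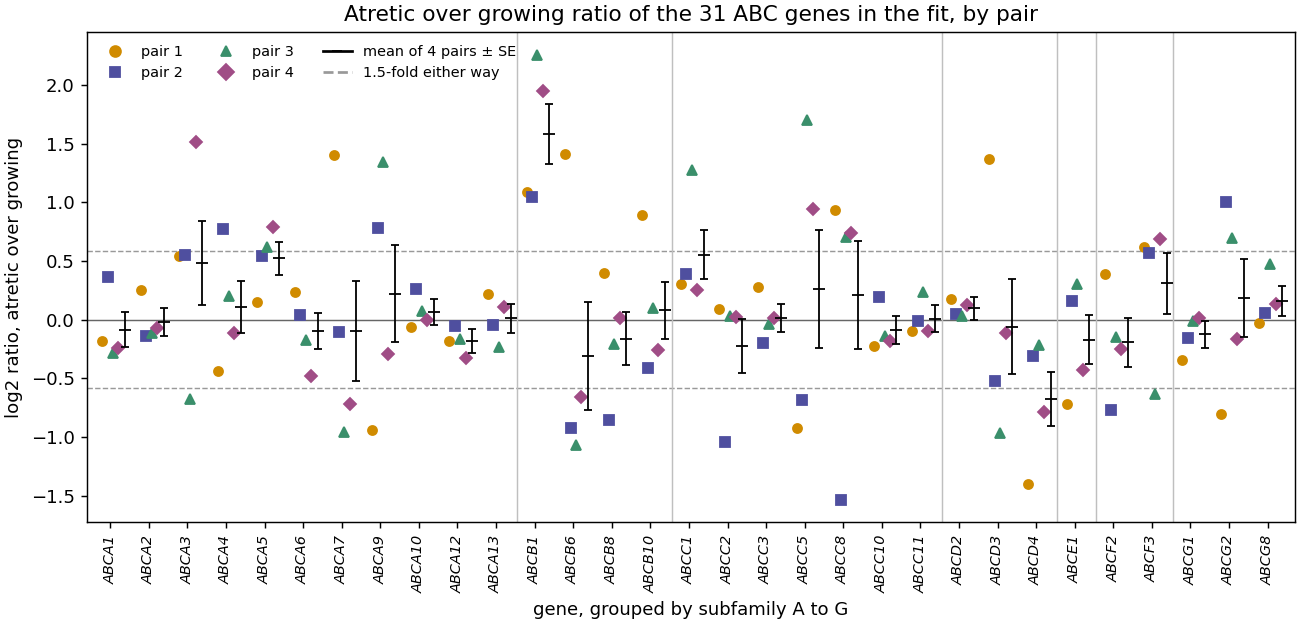
Log2 ratio of the atretic over the growing follicle (vertical axis) for the 31 ABC genes in the fit (horizontal axis, by subfamily), with a symbol for each pair, a black bar for the mean ± SE over 4 pairs and dashed lines at 1.5-fold. ABCB1 lies above 1 in all 4 pairs, and ABCB6, ABCD3 and ABCA7 have pair 1 above 0 and the other pairs below.

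ABCB1, or P-glycoprotein, pumps drugs, steroids and other lipophilic compounds out of cells. Its level in the atretic follicles of pairs 1 to 4 was 12.52, 13.62, 12.66 and 12.09. In the growing follicles it was 11.43, 12.58, 10.40 and 10.14. Within every pair the atretic follicle was the higher one, but the phases overlapped, because the growing follicle of pair 2 lay above the atretic follicle of pair 4. The ratios were 1.09, 1.04, 2.26 and 1.95, with a mean of 1.59 ± 0.26 (SE), or 3.00-fold. The 95% confidence interval ran from 0.92 to 2.25, and limma gave an unadjusted p = 0.00165 and an adjusted p = 0.716. This ratio was the 33rd highest of the 13625 genes, and 0.668% of genes had a ratio at least as large in either direction.

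ABCB1 gave the same direction on every array. With the atretic follicle in Cy5 the ratios of pairs 1 to 4 were 1.16, 0.96, 2.29 and 1.84. With the growing follicle in Cy5, on the other slides, they were 1.01, 1.13, 2.23 and 2.06. Slide and dye orientation could not be told apart, but the ratio was of like size in both. An exact two-sided permutation test of the 4 atretic against the 4 growing levels gave p = 0.0857, where the smallest p of such a design is 0.0286. An exact sign-flip test over pairs gave 0.125, the smallest that 4 pairs allow.

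ABCB1 is also known from the endothelium of several tissues. The 10 endothelial markers summed to 10.60 to 11.27 in the atretic and 10.58 to 11.85 in the growing follicles, and 0 of the 10 were above the controls in all 8 follicles. CLDN5 and ROBO4 were above the controls in 3 follicles of either phase, KDR in 2 of either phase, CDH5 in 1 atretic and 3 growing follicles, and PECAM1 in 0. KDR, an endothelial receptor for vascular growth factor, had the widest ratios of the list, at -3.61, -1.48, 2.24 and 0.86 in pairs 1 to 4. CLDN5 had ratios of 0.70, 0.18, -0.56 and -0.26, and CDH5 of -0.48, 0.26, -0.48 and -0.16. EMCN was above 0 in every pair, at 0.15, 0.31, 0.25 and 0.16. It was above the controls in only 2 atretic and 0 growing follicles. Of the 9 endothelial markers in the fit, 4 had a mean ratio above 0 and 5 below.

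For 11 leukocyte markers the sums were 10.73 to 11.41 in the atretic and 10.72 to 11.23 in the growing follicles, with 0 of them above the controls in every follicle. PTPRC, common to leukocytes, was above the controls in 3 atretic and 4 growing follicles, with a mean ratio of -0.35. CD74 was higher in the atretic follicle of every pair, at 0.14, 0.12, 0.35 and 0.43. Its phases did not overlap, as for 3.61% of all genes tested. TYROBP had ratios of 0.21, 0.80, 1.70 and 0.00, and CD68 had a mean of 0.76. CD74 was above the controls in 4 atretic and 2 growing follicles, TYROBP in 3 and 1, and CD68 in 3 and 2. CD14 and AIF1 had means of -0.09 and -0.07. Of the 9 leukocyte markers in the fit, 6 had a mean ratio above 0 and 3 below. The 7 smooth muscle and pericyte markers summed to 12.41 to 13.54 in the atretic and 12.74 to 13.32 in the growing follicles. Among them 4 had a mean ratio above 0 and 3 below. MYH11 had ratios of -3.76, 4.68, 4.28 and 2.02. Those of ACTA2 were -0.29, 0.17, -0.58 and -0.32, and those of CNN1 were 1.19, -0.42, -1.77 and 0.21. Without pair 1 the ABCB1 ratio was 1.75. The part of endothelial, leukocyte, smooth muscle, theca or luteal transcripts in the ABCB1 ratio was not tested. In the reference annotation ABCB1 lies next to its close relative ABCB4, which was not analysed here. Whether ABCB4 transcripts add to the ABCB1 signal was not tested.

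**Figure D3:**
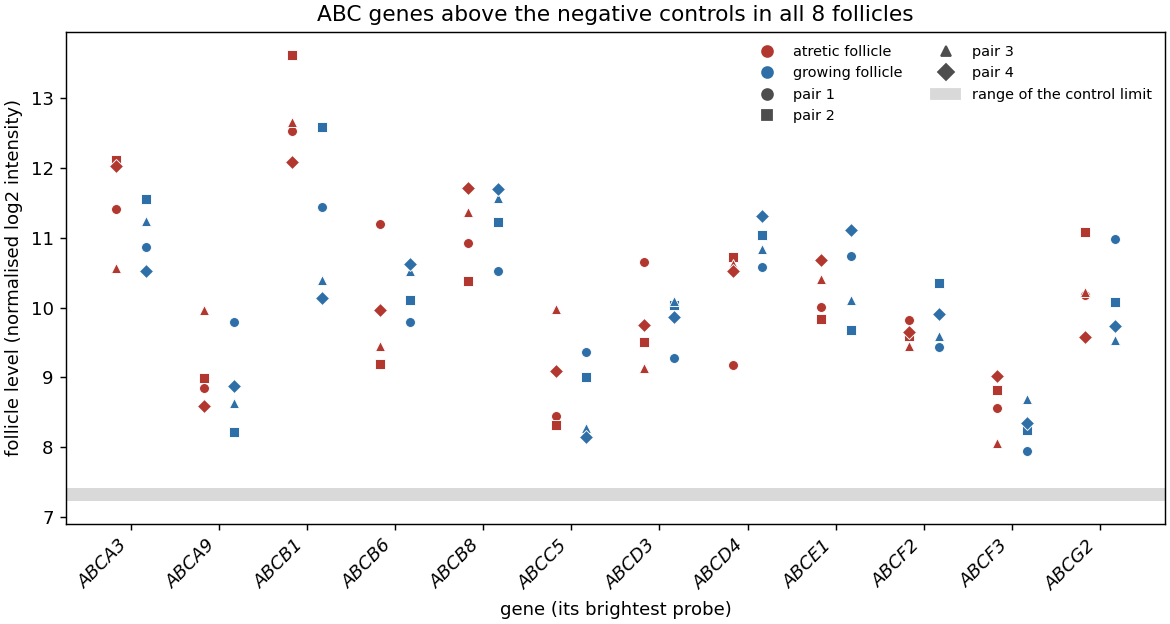
Level of the 12 ABC genes that were above the negative controls in all 8 follicles (vertical axis, normalised log2 intensity; grey band, range of the control limit over follicles), with atretic follicles in red, growing in blue and a symbol for each pair. ABCB1 spans 3.48 log2 units over the 8 follicles, and the phases overlap for all 12 genes.

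Apart from ABCB1, the subfamily B genes that were measured in all follicles were ABCB6 and ABCB8, both of organelle membranes. ABCB6 is known as a porphyrin carrier. From pair 1 to pair 4 its level was 11.20, 9.19, 9.45 and 9.97 in the atretic and 9.79, 10.11, 10.52 and 10.63 in the growing follicles. The atretic follicle of pair 1 was the highest of the 8, while those of the other pairs lay below their growing partners. The mean ratio was -0.31 ± 0.46 (SE) with an adjusted p = 0.933. Without pair 1 it was -0.88, which was past the study's threshold but not past the adjusted one (unadjusted p = 0.00307, adjusted p = 0.186 in limma). ABCB8, of the inner mitochondrial membrane, had ratios of 0.40, -0.85, -0.20 and 0.01. ABCB10, also mitochondrial and linked to haem synthesis, was above the controls in 4 follicles, and its mean ratio was 0.08 ± 0.24 (SE).

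Subfamily A had 5 of its 11 genes above the controls in at least 4 follicles. ABCA3, which loads phospholipid into the lamellar bodies of lung cells, had levels of 11.41, 12.11, 10.56 and 12.03 in the atretic follicles. In the growing follicles they were 10.86, 11.56, 11.24 and 10.52. The atretic follicle was higher in pairs 1, 2 and 4 and lower in pair 3, with ratios of 0.55, 0.55, -0.68 and 1.51. Their mean was 0.48 ± 0.36 (SE, adjusted p = 0.868). Without pair 3 it was 0.87, past the study's threshold with an adjusted p = 0.975.

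ABCA5, a lysosomal protein linked to lipid handling, was dim. Its level was 7.69, 7.47, 7.81 and 8.02 in the atretic follicles and 7.54, 6.93, 7.19 and 7.23 in the growing ones. All 4 atretic follicles and 1 growing follicle were above the controls, and the growing follicle of pair 1 lay above the atretic one of pair 2. The mean ratio was 0.53 ± 0.14 (SE), positive in 4 of 4 pairs, with an unadjusted p = 0.0137 and an adjusted p = 0.716 in limma. It was not past the study's threshold, and with 4 of the 8 growing arrays not above the controls the size of this ratio is only partly measured. Exact permutation of the levels gave p = 0.0571. The 2 dye orientations differed for it, with ratios of 1.28 and -0.04 in pair 3 and of 0.31 and a value close to 0 in pair 1.

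In the reference annotation ABCA5, ABCA10, ABCA6 and ABCA9 are neighbours with no coding gene between them. Their mean ratios were 0.53, 0.07, -0.09 and 0.22, and only ABCA9 was above the controls in all follicles. ABCA9, like ABCA7, ABCB8, ABCB10, ABCC5, ABCC8, ABCD2 and ABCF3, is given with its values although no naming rule covers it, and was chosen after the values were seen. ABCA9 had ratios of -0.94, 0.78, 1.34 and -0.29, so pairs 1 and 4 opposed pairs 2 and 3.

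ABCA1 and ABCG1 export cholesterol to lipoproteins, ABCA1 to apolipoprotein A-I and ABCG1 to high density lipoprotein. ABCA1 lay at the limit of the controls. Its level was 7.12, 7.59, 7.02 and 7.48 in the atretic and 7.30, 7.23, 7.31 and 7.71 in the growing follicles, and 4 of 8 arrays in either phase were above the controls. The mean ratio was -0.09 ± 0.15 (SE, adjusted p = 0.944), with a 95% confidence interval from -0.47 to 0.30.

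ABCG1 was above the controls in 7 follicles, all but the atretic follicle of pair 4, but stayed close to them. On the array with that follicle in Cy3, the control limit of its channel was 7.51, and 48.4% of probes exceeded it. Its level was 7.32, 7.66, 7.66 and 7.67 in the atretic and 7.66, 7.82, 7.68 and 7.65 in the growing follicles. The atretic follicle of pair 1 was the low one, and the other 7 lay within a narrow band. The mean ratio was -0.12 ± 0.11 (SE, adjusted p = 0.89).

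ABCG2, the breast cancer resistance protein, exports drugs, urate and porphyrins. It had levels of 10.17, 11.09, 10.22 and 9.58 in the atretic and 10.98, 10.08, 9.53 and 9.74 in the growing follicles. The ratios of -0.81, 1.01, 0.69 and -0.16 had no shared direction. The mean was 0.18 ± 0.33 (SE), with a 95% confidence interval of limma's model that included 0 (adjusted p = 0.947).

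Subfamily C holds ABCC1, the multidrug resistance protein that exports glutathione conjugates and leukotriene C4. Its level was 7.11, 7.39, 7.95 and 7.06 in the atretic and 6.81, 7.0015, 6.68 and 6.80 in the growing follicles. The phases did not overlap, which made it 1 of the 31 ABC genes with that pattern, against 3.61% of all genes tested. The exact permutation p of 0.0286 is the smallest the design allows. On the growing side it was not above the controls on any of the 8 arrays, and on the atretic side it was above them on 4 of 8 arrays and in 1 follicle, that of pair 3. The measured mean levels were 7.38 and 6.82, with a ratio of 0.55 ± 0.21 (SE), an unadjusted p = 0.046 and an adjusted p = 0.774 in limma. Set against the lowest signal that was above the controls in the growing channels, ABCC1 was at least 1.03-fold higher in the atretic follicles. This bound rests on pair 3, since without it the atretic mean was 7.19, under the 7.35 of that limit, and no bound was left.

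ABCC5, an exporter of cyclic nucleotides, was the C gene above the controls in all follicles. Its level was 8.45, 8.32, 9.98 and 9.09 in the atretic and 9.37, 9.00, 8.28 and 8.15 in the growing follicles. Pairs 1 and 2 were lower in atresia and pairs 3 and 4 higher, with ratios of -0.92, -0.68, 1.70 and 0.94 (mean 0.26 ± 0.50, SE). ABCC8, the sulphonylurea receptor of potassium channels, had ratios of 0.94, 0.70 and 0.74 in pairs 1, 3 and 4 and of -1.54 in pair 2. Its atretic follicle of pair 2, at 6.93, was the only one of the 4 atretic follicles not above the controls. The 4 other C genes in the fit, ABCC2, ABCC3, ABCC10 and ABCC11, had mean ratios from -0.22 to 0.01.

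Subfamily D carries fatty acids and their derivatives. ABCD4, a lysosomal protein needed for the release of vitamin B12, was the ABC gene lower in atretic follicles past the study's threshold. The level of its brightest probe was 9.18, 10.73, 10.62 and 10.52 in the atretic follicles. In the growing follicles it was 10.58, 11.04, 10.84 and 11.31. The atretic follicle was lower in every pair, and that of pair 1 was lowest of all, while those of pairs 2 and 3 lay within the growing range. The ratios of -1.40, -0.31, -0.22 and -0.79 gave a mean of -0.68 ± 0.23 (SE), or 1.601-fold lower, with an unadjusted p = 0.0327 and an adjusted p = 0.759 in limma.

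Among the other probes of ABCD4, only the third brightest had a mean below 0. The second brightest had ratios of -0.20, 1.22, 0.55 and 0.31 (mean 0.47 ± 0.25, SE), and its dye-swapped arrays had the same sign in 1 of 4 pairs, with a median gap between them of 2.33. The next probe gave -1.81, 0.43, 0.03 and -0.62 (mean -0.49 ± 0.39, SE). The fourth, with a mean of 0.00, was above the controls in 5 follicles and the fifth in 0. Pair 1 was below 0 on 4 of the 5 probes. Averaged over the 4 probes that reached the intensity minimum, the ratio of ABCD4 was -0.17, which was not past the study's threshold, and without pair 1 its brightest probe was at -0.44 with an unadjusted p = 0.0597. The theca, luteal and granulosa sums given above were highest in the atretic follicle of that pair, the granulosa sum by a small margin. Their part in the ABCD4 ratio was not tested.

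**Figure D4:**
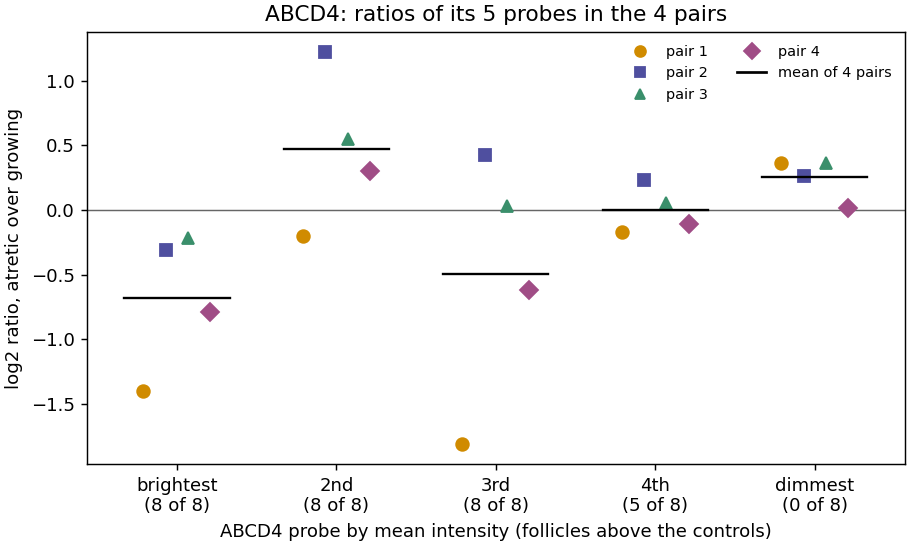
Log2 ratio of the atretic over the growing follicle (vertical axis) for the 5 ABCD4 probes in order of mean intensity (horizontal axis, with the number of follicles above the controls), with a symbol for each pair and a line for the mean of 4 pairs. The means run from -0.68 for the brightest probe to 0.47 for the second, and pair 1 lies lowest on the first 4 probes.

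ABCD3, a peroxisomal carrier of fatty acids and bile acid precursors, had levels of 10.65, 9.51, 9.13 and 9.75 in the atretic follicles. In the growing follicles they were 9.28, 10.04, 10.10 and 9.86. As with ABCB6, the atretic follicle of pair 1 was the highest of the 8 and the other pairs ran the opposite way, with ratios of 1.37, -0.52, -0.97 and -0.11 (mean -0.06 ± 0.40, SE). Its second probe gave 1.02, -0.06, -0.83 and -0.10 and its dimmest 0.36, 0.13, -0.22 and -0.45. ABCD2, a relative of ABCD3 that carries very long-chain fatty acids, was above 0 in 4 of 4 pairs, with a mean of 0.10 ± 0.10 (SE).

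Pair 1 opposed the other 3 pairs in 6 of the 31 ABC genes, where 21.9% of all genes did. The 6 were ABCA2, ABCA7, ABCB6, ABCD3, ABCF2 and ABCG8. ABCA7, a lipid carrier close to ABCA1, had ratios of 1.40, -0.11, -0.96 and -0.72. The sign was shared by all 4 pairs in another 6 ABC genes, where 15.1% of all genes shared it: ABCA5, ABCB1, ABCC1 and ABCD2 were higher and ABCA12 and ABCD4 lower. Both counts were close to the background share.

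Subfamilies E and F act on ribosomes instead of membranes. ABCE1, which splits ribosomes after termination, had levels of 10.01, 9.83, 10.41 and 10.69 in the atretic and 10.73, 9.67, 10.10 and 11.11 in the growing follicles. The phases overlapped widely, and the mean ratio was -0.17 ± 0.21 (SE, adjusted p = 0.918). ABCF2 had ratios of 0.39, -0.77, -0.15 and -0.25 (mean -0.19 ± 0.21, SE). ABCF3 was higher in pairs 1, 2 and 4, at 0.62, 0.56 and 0.68, and lower in pair 3, at -0.63. Its mean without pair 3 was 0.62, past the study's threshold with an adjusted p = 0.875.

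The 20 ABC genes that were above the controls in at least 4 follicles varied widely between follicles. Their levels spanned a median of 1.48 log2 units over the 8 follicles, against 1.23 for all 9770 genes above the controls as often. ABCB1 had the widest span at 3.48, followed by ABCD4 at 2.13 and ABCB6 at 2.01. The 11 dimmer ABC genes in the fit spanned a median of 0.63, against 0.54 for the 3855 other genes that were as dim. No ABC probe reached the scanner's upper limit.

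Genes that work with these carriers were counted from lists of partners, to be read against the 2.66% of all genes higher and the 2.44% lower past the study's threshold. With lists this short, 1 gene already exceeds that share. Of 11 sterol and lipoprotein genes in the fit, 2 were higher past the study's threshold and 0 lower. They were APOA1, the acceptor for ABCA1, at 1.86 ± 0.61 (SE) and SOAT1, which esterifies cholesterol, at 0.64 ± 0.13 (SE). APOA1 was also among the genes that the study measured by PCR, on these and further follicles. There the study listed it with the genes that showed no significant difference between phases. APOA1 had its highest level, 14.85, in the atretic pair 1 follicle, against 12.02 to 13.51 in the other atretic and 10.69 to 12.60 in the growing follicles. SOAT1 was higher in every pair, with ratios of 0.39, 0.63, 0.60 and 0.96.

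Of 11 peroxisomal genes, 1 was lower and 0 higher. That was SCP2, a sterol and fatty acid carrier of peroxisomes, with ratios of -2.06, -1.29, -0.23 and -1.14 (mean -1.18 ± 0.31, SE). Of 10 haem and iron-sulphur genes, 1 was lower and 0 higher, namely UROD, an enzyme of haem synthesis, at -0.95 ± 0.29 (SE). No list gene passed adjustment over all probes, where the smallest adjusted p of limma was 0.716 for any probe.

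The other lists held fewer such genes. Of 15 known regulators of ABC genes, 13 glutathione genes, 7 uptake carriers and 8 ribosome partners, 0 passed the study's threshold in either direction. Their median ratios were 0.06, -0.19, 0.07 and 0.14. The regulators included NR1I2, the pregnane X receptor, at 0.02, NR1H3, a liver X receptor, at -0.73, and PPARG at -0.72. The last 2 had unadjusted p = 0.257 and 0.0822 in limma. NR1I2 was above the controls in 0 follicles, so its ratio is hardly measured. The ratios of NR1H3 in pairs 1 to 4 were 0.68, -2.68, -0.88 and -0.03, and those of PPARG were -0.14, -0.06, -0.86 and -1.81.

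The family has members with other names, which the choice by symbol leaves out. TAP1 and TAP2, the carrier of peptides for antigen presentation, had mean ratios of -0.31 ± 0.21 and -0.08 ± 0.35 (SE), and CFTR, a chloride channel, was above the controls on 0 arrays. Of 7 genes of peptide loading, 1 was higher past the study's threshold. B2M, the light chain of class I molecules, had ratios of 0.39, 0.31, 0.74 and 0.92 (mean 0.59 ± 0.15, SE).

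ABCB1 passed the study's threshold under more settings than ABCD4. Across 19 other settings the ABCB1 ratio ran from 1.36 to 1.77 and was past the study's threshold in all 19. The ABCD4 ratio ran from -0.83 to -0.17 and was past it in 12 of 19. The -0.17 came from averaging all probes of a gene, which could not move ABCB1, a gene with 1 probe. The other ends of both ranges came from leaving out a pair.

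**Figure D5:**
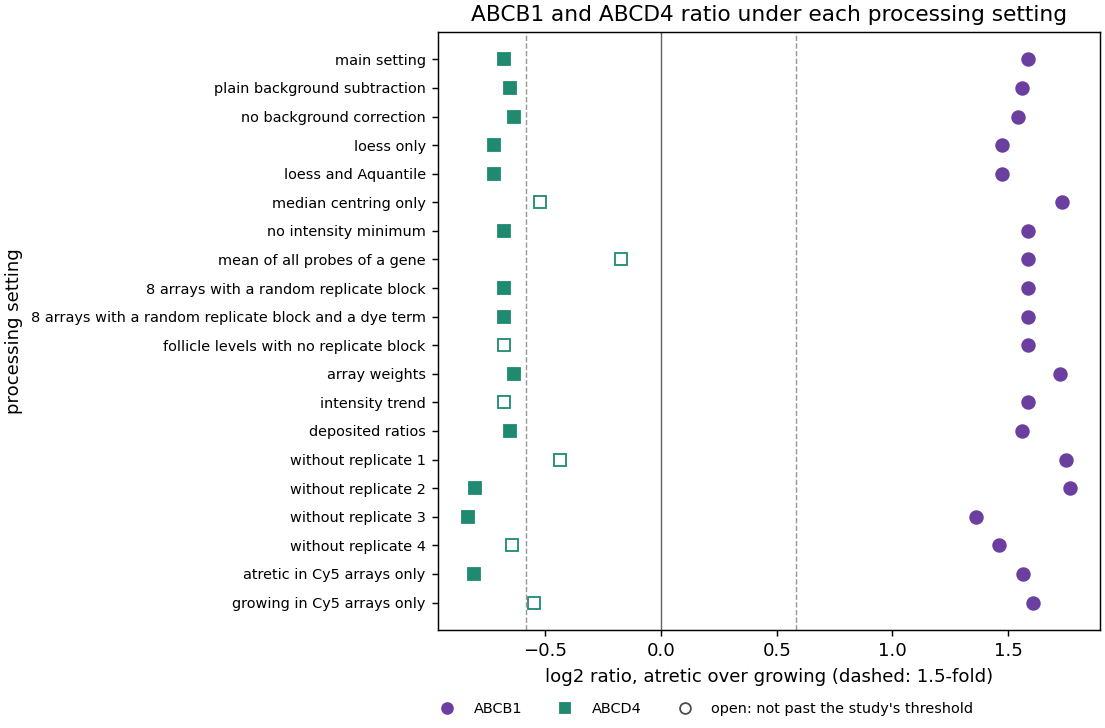
Log2 ratio of the atretic over the growing follicle (horizontal axis, dashed lines at 1.5-fold) for ABCB1 (circles) and ABCD4 (squares) under the main and 19 other processing settings (vertical axis), with open symbols where the study's threshold was not passed. ABCB1 is filled throughout, and ABCD4 is open in 7 settings.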

How the data were processed

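Labelled, amplified RNA of granulosa cells was hybridised to the EmbryoGENE bovine 2-colour array. The authors deposited scanner intensities, the median of each spot and of its background on a linear scale, and a table of log2 ratios (Cy5 to Cy3) that had been background-subtracted and normalised by loess and quantiles. Rebuilding these log2 ratios by plain subtraction gave correlations of 0.9986 to 0.9999, which settled their scale and direction, and their medians ran from -0.02 to -0.01.

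Here, intensities were corrected with normexp (offset 50) and normalised by loess within and quantiles between arrays, with 1426 control spots at weight 0 in the loess and left out of the fit. Ratios were turned to atretic over growing, and dye swaps, which share their extracts, were averaged per pair (n = 4). Pairs follow the numbers in the labels, and 8 of 8 arrays correlated best with their own number. With R 4.3.3, limma 3.58.1 was fitted to the 36295 probes whose mean log2 intensity reached 7, and its two-sided p-values were adjusted over all of them (Benjamini-Hochberg). The number of arrays limits the precision.

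Genes were named from the platform annotation, and a gene's brightest probe represents it. Named are ABC genes past the study's threshold, the 3 highest and 3 lowest mean ratios among genes above the controls in at least 4 follicles, the 3 widest ranges, and well-known carriers. The members and lists were chosen with earlier results of these data known. No coordinates are printed, since the sources used here name no build for the annotation. Alternatives covered background correction, normalisation, intensity minimum, probe choice, the replicate block, weights, trend, deposited ratios and each pair left out, with single dye orientations, and all alternatives for the overlap of levels, added after seeing the data.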

Additional observations from a re-analysis of the deposited data

Results flagged for a closer look

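For 17 ABC genes, the pair ratios and the levels of both phases were searched for 1 follicle or pair far from the other 3, by Dixon's 95% limit. Of 51 such groups of 4, 10 had one. Chance flags about 1 in 20 groups, and the ratio and the levels of a gene share values. Some of the 17 genes were chosen for wide ranges or large ratios, or after the values were seen. The count can therefore not be set against that rate.

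The ABCB6 ratio of pair 1 was 1.41, far from -1.07 to -0.66 in the others. The ABCD4 level of the atretic follicle of pair 1 was 9.18, against 10.52 to 10.73. The ABCC1 ratio of pair 3 was 1.27, against 0.26 to 0.39, and the ABCF3 ratio of pair 3 was -0.63, against 0.56 to 0.68. ABCC8 stood out in pair 2, with a ratio of -1.54 against 0.70 to 0.94 and an atretic level of 6.93 against 8.09 to 8.26.

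The remaining values came from probes near the controls. The ABCA1 ratio of pair 2 was 0.36, against -0.28 to -0.18, and its growing level in pair 4 was 7.71, against 7.23 to 7.31. ABCG1 had an atretic level of 7.32 in pair 1, against 7.66 to 7.67, and a growing level of 7.82 in pair 2, against 7.65 to 7.68.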

How the results depend on the processing

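The ABCB1 ratio kept its direction and stayed past the study's threshold in all 19 alternatives, from 1.36 to 1.77. Its adjusted p ranged from 0.0258 to 0.996. Fitting all 8 arrays with a random replicate block, which counts dye swaps as partly separate, put 1 ABC gene past an adjusted p of 0.05 (ABCB1, adjusted p = 0.0258, and 0.0478 with a dye term) where the main count was 0. The number of ABC genes lower past the study's threshold went from 1 to 0 with median centring only, with the mean of all probes of a gene, with follicle levels and no replicate block, with an intensity trend and where growing follicles were in Cy5. The number higher went from 1 to 2 with array weights and on either dye orientation alone. Leaving out 1 pair gave 1 to 3 genes higher and 0 to 2 lower. With pair 1 left out, ABCA5 and ABCB1 were higher and ABCA7 and ABCB6 lower. With pair 2 left out ABCC8 was added, with pair 3 ABCA3 and ABCF3, and with pair 4 only ABCB1 was left. ABC genes whose phases did not overlap went from 1 to 2 with loess only, and to 1 to 6 with 1 pair left out. The share over all genes was not counted under these settings. With fewer follicles per phase, levels separate more often by chance, so the counts without a pair cannot be set beside the main one.

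The direction reversed for ABCB8 (0.0027) and ABCD3 (0.0931) with median centring, for ABCA9 (-0.0241) and ABCD3 (0.188) with only atretic follicles in Cy5, and for ABCA1 (0.0522) and ABCG1 (0.0335) with only growing ones in Cy5. Leaving out 1 pair gave ratios on both sides of 0 for 16 of the 31 ABC genes in the fit. Among the 17 searched for far values above, these were 7, with ratios from -0.15 to 0.61 for ABCA9, -0.348 to 0.0692 for ABCB8, -0.22 to 0.653 for ABCC5, -0.0317 to 0.793 for ABCC8, -0.534 to 0.244 for ABCD3, -0.329 to 0.0123 for ABCE1 and -0.0914 to 0.512 for ABCG2. The cause was not tested. Median centring also turned the split of all genes past the threshold from 52.2% to 73.7% higher. Stricter control limits left 11 or 12 of the 12 genes above the controls. For genes near the controls, signal over background limits what can be measured.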
